A study of Yucca flaccida with 12 samples.

Results

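Position within a leaf that shows no variegation was examined by setting the centre of the blade (UC, 3 libraries) against its edge (UE, 3 libraries). The 6 libraries were chosen by their sample titles from the 12 of the series, which also holds variegated centre (VC) and variegated edge (VE) leaves, 3 libraries each. All plants were Yucca flaccida 'Golden Sword', an ornamental monocot cultivar, kept in vitro and left untreated, and every sample came from the second youngest leaf. In the UC and UE plants the leaf was unvariegated, and in the VC and VE plants it was variegated. Poly(A) RNA was sequenced. The labels do not say how the zones were cut, whether leaves were pooled or whether replicates are separate plants. The p-values below therefore cover the spread among the libraries at hand, and that spread may be technical.

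In a monocot blade, veins run side by side from base to tip, and the middle of the blade is often thicker than the margin. Centre and edge can therefore hold epidermis, photosynthetic tissue, veins and fibres in different proportions. In variegated plants, zones of the blade differ in pigment, and the unvariegated leaf allows centre and edge to be compared without such zones. In bulk RNA, fewer cells of a type and less RNA per cell cannot be told apart. The genes here are clusters of assembled transcripts, and the files do not pair their identifiers with gene names. The labelled tissue could not be checked against marker genes for this reason, and genes are described by their level, length and pattern.

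Total estimated counts were 15082897, 13139086 and 20306020 in the UC libraries and 16196250, 15488148 and 18161194 in the UE libraries. At least 1 count was found for 107342 ± 4367 genes in UC and 105857 ± 7873 in UE (SD, n = 3 each), a difference smaller than their spread (exact permutation test, two-sided p = 0.8; 0.1 is the smallest that 3 against 3 can give). Counting only genes with at least 10 counts, UC had 54306 ± 2442 and UE 50482 ± 3707 (exact permutation p = 0.2), and with libraries thinned to the smallest total the difference was 2857 genes more in UC (exact permutation p = 0.7). The 6 libraries did not fall apart by zone. Over 13784 genes that averaged 10 CPM or more in all 12 libraries (CPM, counts relative to the TMM-scaled library size), Pearson correlations of log2 CPM across genes lay between 0.908 and 0.944 within UC, between 0.876 and 0.953 within UE and between 0.871 and 0.948 across zones. The closest centre-edge pair, UC1 and UE1 at 0.948, was closer than any pair of UC libraries. UE2 stood somewhat apart: among 13505 genes that averaged 10 CPM or more in unvariegated leaves, it lay at least 2-fold above or below all 5 other libraries for 103 genes, against 13 to 33 genes for each of the others. The first principal component, which carried 30.5% of the variance among 1000 highly variable genes, placed UC1, UE1 and UE3 on one side and UC2, UC3 and UE2 on the other.

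**Figure D1:**
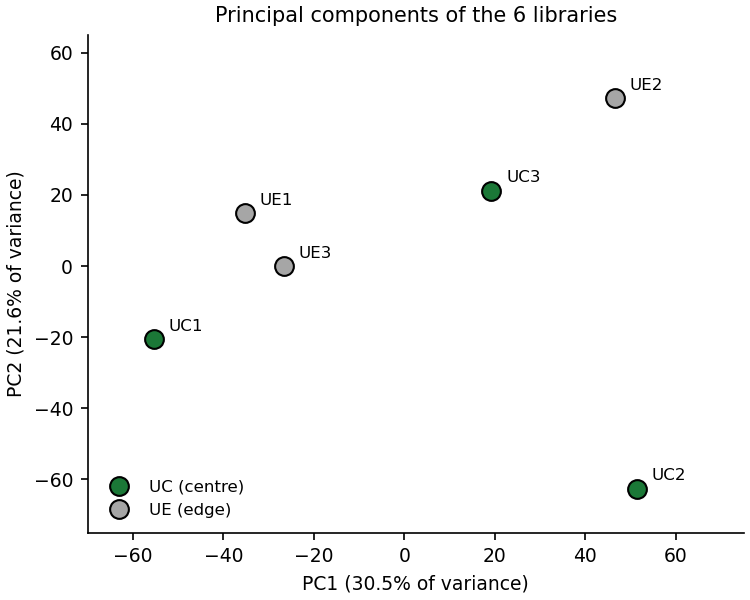
Principal component scores of the 3 UC (centre) and 3 UE (edge) libraries from log2 CPM of the 1000 most variable genes; each point is 1 library. The zones are mixed on both axes: PC1 runs from -55.4 in UC1 to 51.5 in UC2, and UC2 lies lowest on PC2 at -62.6.

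Setting UC against UE asks which transcripts depend on position where variegation is absent. Very few differences passed the test. Of 59225 genes tested, 1 was higher in UC (0.00169% of genes tested) and 0 were lower (0%) at an adjusted p below 0.05 (edgeR, quasi-likelihood F-test, Benjamini-Hochberg). At an unadjusted p below 0.05, 1800 genes were higher (3.04%) and 1291 lower (2.18%), 5.22% in both directions. Scaling to library totals alone gave 2620 higher and 663 lower. DESeq2 called 113 genes (0.195%), 63 higher (0.109% of those with an adjusted p) and 50 lower (0.0863%). Of these 113 genes, 46 had no counts in one of the zones and 32 had most of their summed CPM in a single library, and their median level was 1.97 CPM. The zones did not overlap for 100 of the 113 (against 11% of all genes tested), and 24 averaged 10 CPM or more. In edgeR 107 had an unadjusted p below 0.05 with the same sign (against 5.22% of all genes tested in both directions). Both tests used the same counts, so these shares are not separate support.

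The distribution of unadjusted p-values was nearly level. In UC against UE 678 genes had an unadjusted p below 0.01 and 75 below 0.001. In VC against VE, tested in the same edgeR fit, these numbers were 2869 and 830, and 565 genes passed the adjusted threshold (0.954% of genes tested), 227 higher in VC (0.383%) and 338 lower (0.571%). The test of the difference itself, the interaction of zone and phenotype, called 57 genes (0.0962%), 21 with a more positive VC to VE difference (0.0355%) and 36 with a more negative one (0.0608%).

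**Figure D2:**
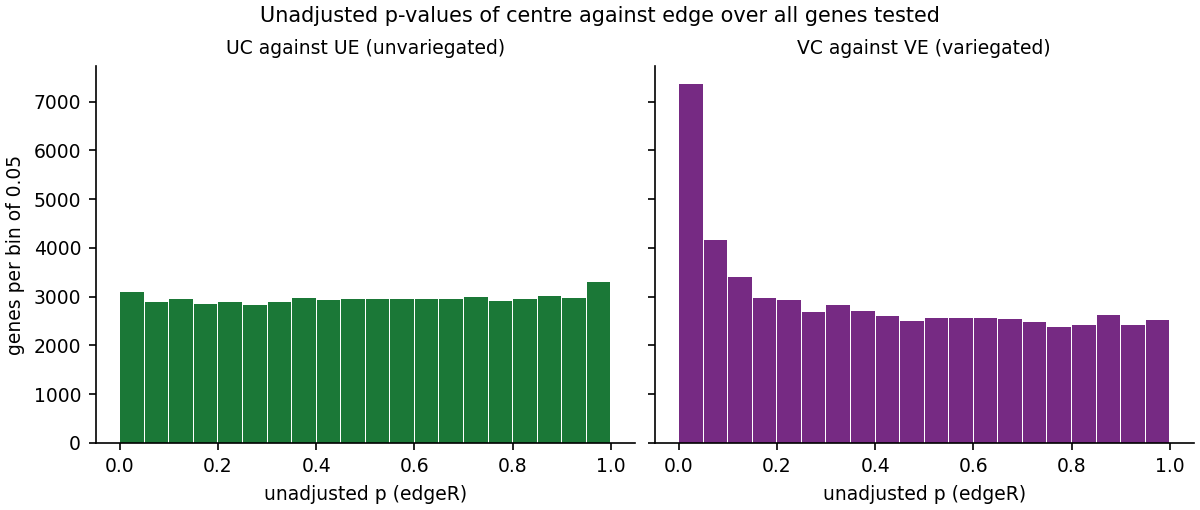
Unadjusted edgeR p-values in bins of 0.05 for 59225 genes, left for UC against UE and right for VC against VE. The first bin holds 3091 genes in UC against UE and 7361 (12.4%) in VC against VE, and the other UC against UE bins hold between 2835 and 3304.

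Cluster-20123.55719, a gene with a short effective length of 244 bases, was the 1 gene that passed the adjusted edgeR threshold, and it was higher in the centre. Its level was 11.5, 11.7 and 10.2 CPM in UC1, UC2 and UC3, against 1.38, 1.19 and 2.5 CPM in UE1, UE2 and UE3. Every centre library lay above every edge library, and the highest edge value was far below the lowest centre value. The means were 11.1 ± 0.796 CPM in UC libraries, against 1.69 ± 0.708 CPM in UE libraries (SD, n = 3), from 579 and 89 counts over the libraries of each zone. The log2 fold change was 2.68 (SE 0.28, 95% interval 2.08 to 3.29, adjusted p = 0.0384 in edgeR). The call rested on a narrow margin. It was lost on leaving out any of UC1, UC2, UE1, UE2, VC1, VC2, VC3, VE2 or VE3, with adjusted edgeR p of 0.0591 to 0.29, while the log2 fold change stayed between 2.48 and 2.68 (adjusted p over all alternatives 3.13e-16 to 0.982). It was also lost in edgeR with the 6 unvariegated libraries alone (adjusted p = 0.671), with the replicate number as a block (adjusted p = 0.3) and with the trend in effective length removed (adjusted p = 0.0927).

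Cluster-20123.55721, with an effective length of 214 bases, was also higher in every centre library than in any edge library but did not pass the adjusted threshold. Its level was 32.2, 43.4 and 32.9 CPM in the UC libraries, against 5.64, 3.38 and 11.2 CPM in the UE libraries. The zones did not overlap, and UE3 was the highest of the edge libraries for this gene as for Cluster-20123.55719. The log2 fold change was 2.41 (SE 0.34, 95% interval 1.66 to 3.16, unadjusted p = 1.80e-05, adjusted p = 0.266 in edgeR). Without UE3 the edgeR call was made (log2 fold change 2.99, adjusted p = 0.00906), and DESeq2 made it on all libraries (2.41, adjusted p = 1.46e-09; range over alternatives 1.46e-09 to 0.996).

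Both genes kept a similar proportion to each other. Per length, Cluster-20123.55721 stood at 3.16 to 4.19 times the FPKM of Cluster-20123.55719 in the UC libraries and at 3.23 to 5.1 times in the UE libraries. In FPKM, fragments scaled for length and library total, Cluster-20123.55719 averaged 46.4 ± 3.74 in UC and 7.18 ± 3.44 in UE, and Cluster-20123.55721 averaged 171 ± 29.9 in UC and 32.8 ± 21.4 in UE (SD, n = 3). Their identifiers are close in number, and reads may be shared between them. Both belong to the genes with effective lengths under 300 bases, whose median log2 fold change was 0.23. Within that class Cluster-20123.55719 lay above 99.6% of genes and Cluster-20123.55721 above 99.4%. Both were picked for a small p and zones that did not overlap, so these ranks are not separate support.

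Among genes lower in the centre, Cluster-20123.90151 had the smallest p of those averaging 1 CPM or more whose zones did not overlap. It had 3.84, 4.12 and 5.55 CPM in the UC libraries, against 11.4, 13.5 and 9.09 CPM in the UE libraries. All UC values lay under all UE values. The difference did not pass the adjusted threshold (log2 fold change -1.33, SE 0.23, 95% interval -1.83 to -0.83, unadjusted p = 1e-04, adjusted p = 0.538 in edgeR). Cluster-21677.1 had 5.79, 6.24 and 5.93 CPM in the UC libraries and 8.97, 13.3 and 10.3 CPM in the UE libraries. The centre libraries were tightly grouped below the edge libraries (log2 fold change -0.86, SE 0.17, 95% interval -1.22 to -0.50, unadjusted p = 0.000261, adjusted p = 0.597 in edgeR). DESeq2 called both, with adjusted p of 0.000714 and 0.00743. The adjusted p of these genes ranged over the alternatives from 0.000714 to 0.996 for Cluster-20123.90151 and from 0.00743 to 0.999 for Cluster-21677.1.

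The variegated leaves, whose libraries do not enter the UC and UE levels, had the same direction for all 4 genes. Cluster-20123.55719 stood at 160 ± 23.7 CPM in VC and 23.5 ± 6.07 CPM in VE (SD, n = 3), with a log2 fold change of 2.76 (SE 0.25, adjusted p = 0.000793 in edgeR). Cluster-20123.55721 stood at 570 ± 35.1 CPM in VC and 79.4 ± 13.6 CPM in VE, with 2.85 (SE 0.34, adjusted p = 0.00476 in edgeR). Levels of both genes were thus higher in both zones of variegated leaves than in either zone of unvariegated leaves, while their centre-edge difference in log2 terms was near the same size. The interaction was 0.077 (SE 0.38, adjusted p = 0.989) for Cluster-20123.55719 and 0.44 (SE 0.45, adjusted p = 0.861) for Cluster-20123.55721 in the same edgeR fit, which does not show that the zone differences are equal. Cluster-20123.90151 had 2.85 ± 0.387 CPM in VC and 5.09 ± 0.831 CPM in VE, and Cluster-21677.1 had 8.17 ± 0.486 CPM in VC and 11.4 ± 0.197 CPM in VE. Their log2 fold changes of -0.83 and -0.48 in variegated leaves had unadjusted p of 0.00413 and 0.0128 and adjusted p of 0.14 and 0.228 in edgeR.

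**Figure D3:**
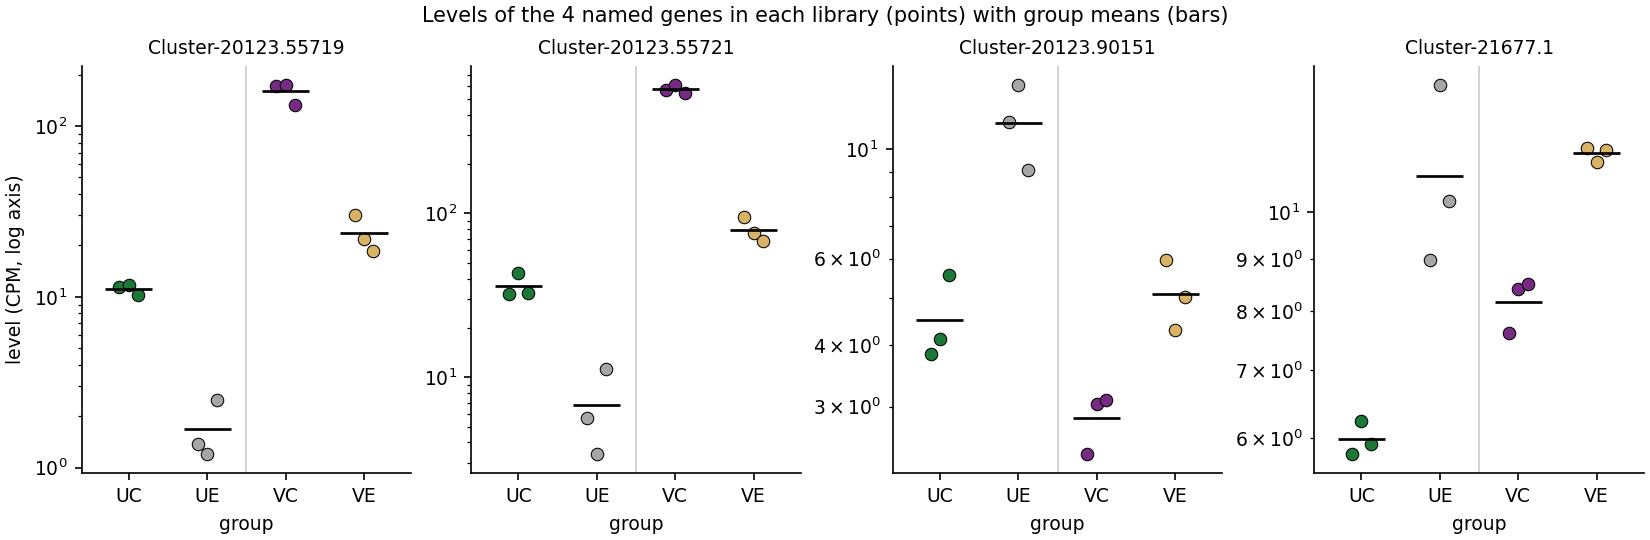
Levels in CPM (log axis) of the 4 named genes in each library (points), with group means (bars), for UC, UE, VC and VE. UC lies above UE for Cluster-20123.55719 and Cluster-20123.55721 and below UE for Cluster-20123.90151 and Cluster-21677.1, and VC and VE are placed in the same order in all 4 panels.

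Leading genes in either direction had the same sign in variegated leaves about as often as all genes tested. Of the 100 genes higher in UC with the smallest p, 51 were also higher in VC than in VE, where 50.1% of all genes tested were higher, and 5 were called in that direction and 4 in the opposite one. Of the 100 genes lower in UC with the smallest p, 50 were also lower in VC, where 49.8% of all genes tested were lower, with 0 called in the same direction and 4 in the opposite one. Of all genes tested, 0.383% were called higher and 0.571% lower in VC against VE. Both contrasts share an estimate of the spread of each gene, so all genes tested are not a like baseline for the calls. The leading lower genes were rare transcripts: their median level was 1.33 CPM, and 40 of the 100 had no counts in one zone. The leading higher genes had a median of 4.25 CPM, and 9 of them had no counts in one zone.

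Among the 13505 genes averaging 10 CPM or more, differences of 2-fold or more were few. In UC against UE 29 genes were at least 2-fold higher and 54 at least 2-fold lower, and of these 21 and 20 had zones that did not overlap. In VC against VE the same genes gave 178 higher and 398 lower, with 123 and 331 not overlapping. Among all genes tested, 6.09% lay above UE in every UC library and 4.86% below, 11% in all, while 9.47% lay above VE in every VC library and 10.1% below, 19.6% in all. The 21 non-overlapping higher genes reached a log2 fold change of 2.41 and had a median level of 15.2 CPM, and 8 of these 21 had a fold change above 0 in VC against VE, 1 of them called and 1 other called in the opposite direction. Of the 13505 genes at this level, 45.8% were above 0 in VC against VE and 0.948% were called higher. For the 20 lower genes the size of the log2 fold change reached 2.52 and the median level was 17.9 CPM. In VC against VE 16 of the 20 had a fold change below 0, 4 of them called and 0 called in the opposite direction, while 54.2% of the 13505 genes were below 0 and 1.62% called lower. Both contrasts share an estimate of the spread of each gene, and both lists were picked by their UC and UE values. The 13505 genes are therefore not a like baseline for the calls, and no conclusion is drawn from these shares. The lists differed in length: 14 of the 21 higher genes and 1 of the 20 lower genes had effective lengths under 300 bases, as did 675 (5%) of all genes at this level.

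**Figure D4:**
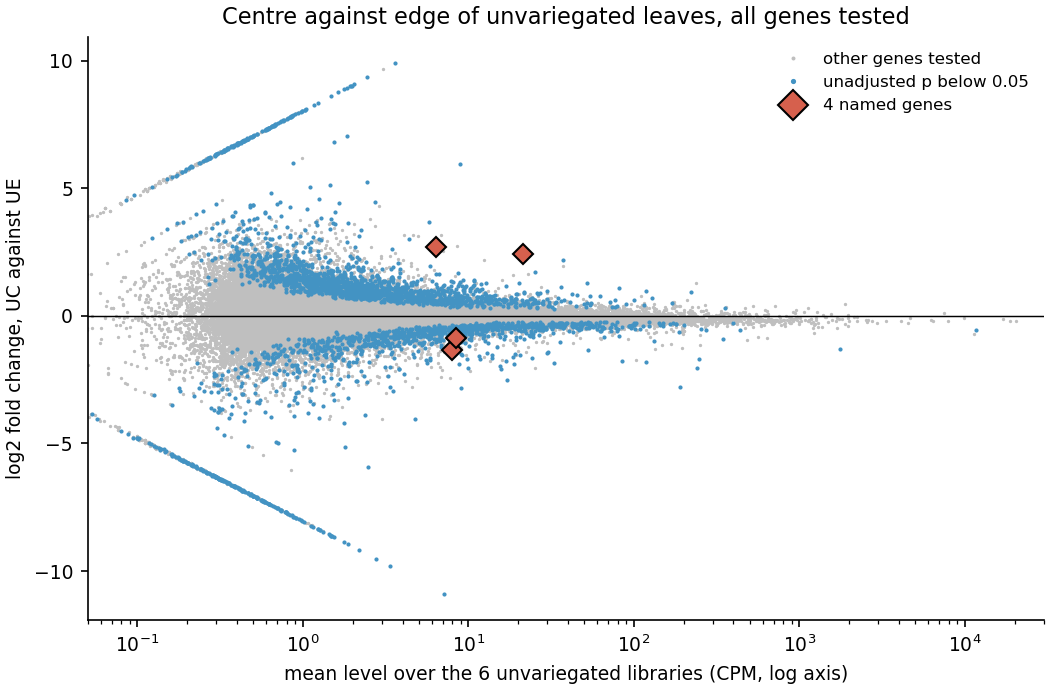
Log2 fold change of UC against UE over the mean level in the 6 unvariegated libraries (CPM, log axis) for the genes tested; blue points have an unadjusted p below 0.05, diamonds are the 4 named genes, and 405 genes with a mean below 0.05 CPM are outside the axis. At high levels the cloud is narrow and lies slightly below 0, and the straight outer bands are genes with no counts in one zone.

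Abundant transcripts had a median slightly below that of other genes in UC against UE, although the libraries of the zones overlapped. The 1242 genes at 100 CPM and over had a median log2 fold change of -0.15, against -0.0019 over all genes tested. The class median of the deviation from each gene's mean was -0.13, -0.11 and 0.022 in UC1, UC2 and UC3, against 0.11, 0.14 and -0.056 in UE1, UE2 and UE3, so that UC3 lay above UE3. In this class 104 genes lay below UE in every UC library (8.37%, against 4.86% of all genes tested) and 15 above (1.21%, against 6.09%). At an unadjusted p below 0.05, 31 were lower (2.5%, near the 2.18% of all genes tested) and 7 higher (0.564%, against 3.04%). The 12263 genes at 10 to 100 CPM had a median of -0.084, the 28680 genes at 1 to 10 CPM 0.029 and the 17040 genes under 1 CPM 0.17. Scaling to library totals alone moved the median of all genes to 0.10, and the class at 10 to 100 CPM then stood at 0.031, above 0. Relative to the median of all genes the most abundant class stood at -0.15 with TMM scaling and at -0.14 with library totals. It stood at -0.12 with the trend in effective length removed and at -0.11 from log2 FPKM plus 0.1.

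By share of the RNA, the 100 most abundant genes of each library held 23.9%, 24.1% and 26.1% of counts in UC1, UC2 and UC3, against 27.5%, 27.3% and 24.8% in UE1, UE2 and UE3. UC3 lay above UE3, so the zones overlapped (difference -1.87 percentage points, two-sided exact permutation p = 0.2, Benjamini-Hochberg adjusted 0.267 over 4 library measures). Of the 100 most abundant genes by mean CPM in either zone, 96 were the same. Of the 100 most abundant over both zones, 88 had a log2 fold change below 0 and the median was -0.17, while with library totals these were 68 genes and -0.05. None of the 100 passed the adjusted edgeR test, and 2 were lower and 0 higher at an unadjusted p below 0.05. The single most abundant gene held 1.94%, 1.8% and 2.36% of counts in the UC libraries and 2.48%, 2.04% and 2.08% in the UE libraries, with overlapping zones (log2 fold change -0.22, adjusted p = 1 in edgeR).

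Short genes stood slightly higher, as a class, in all 3 centre libraries. Genes with effective lengths under 300 bases (9245 genes) had a median log2 fold change of 0.23, against -0.0024 for the 22305 genes of 300 to 1000 bases and -0.051 for the 27675 longer genes. Their median deviation from each gene's mean over the 6 libraries was 0.18, 0.16 and 0.08 in UC1, UC2 and UC3, against -0.13, -0.038 and -0.098 in UE1, UE2 and UE3 on the log2 scale. In this class 1330 genes lay above UE in every UC library (14.4%, against 6.09% of all genes tested) and 228 below (2.47%, against 4.86%). Genes under 300 bases took 6.05%, 5.76% and 5.36% of counts in the UC libraries, against 4.76%, 5.26% and 4.71% in the UE libraries. The zones did not overlap in this share. The difference of 0.81 percentage points had a two-sided exact permutation p of 0.1, the smallest possible. After Benjamini-Hochberg adjustment over the 4 library measures this p was 0.267. With the bound set at 500 bases, UE2 lay above every UC library, so the zones overlapped. The difference was then 0.69 percentage points (two-sided exact permutation p = 0.4). The separation of the zones in this share thus depended on the bound.

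**Figure D5:**
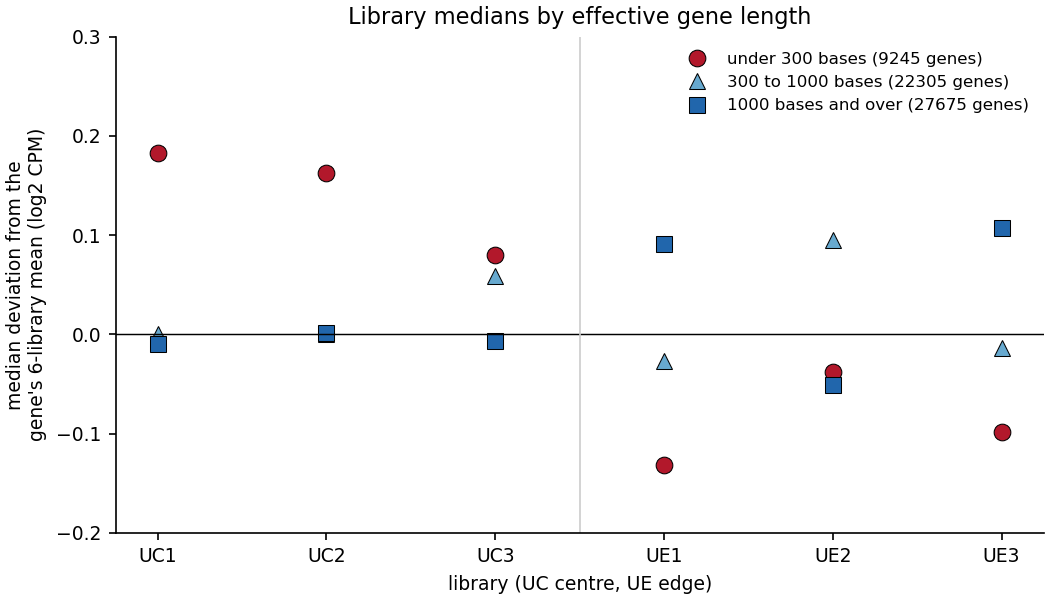
Median deviation of log2 CPM from each gene's mean over the 6 unvariegated libraries, by library and effective length class (points). Genes under 300 bases lie above 0 in UC1, UC2 and UC3, from 0.08 to 0.18, and below 0 in UE1, UE2 and UE3.

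In unvariegated leaves a technical measure moved with this shift. The effective length that the deposited values imply, the ratio of expected count to FPKM scaled by the library total, was longer in UC1, UC2 and UC3 by a median of 22.6, 20.3 and 7.16 bases than each gene's median over all 12 libraries, across 18829 genes with at least 50 counts in each library. In UE1, UE2 and UE3 the offset was -1.74, -3.18 and -1.83 bases, and in the VC and VE libraries it lay between -4.29 and 0.991 bases. Its mean was 0.40 bases in VC and -2.25 bases in VE, higher in the centre there too, with overlapping libraries. In VC against VE the median log2 fold change of genes under 300 bases was nevertheless below 0, at -0.07. When the trend with effective length was removed from each library, genes at an unadjusted p below 0.05 numbered 1413 higher and 1459 lower, and Cluster-20123.55719 had a log2 fold change of 2.51 with an adjusted edgeR p of 0.0927. The removal sets the trend to 0 by construction, and whether it takes away a difference of the leaf zones was not tested.

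Genes outside the largest assembly group, the cluster family that holds 97.8% of counts, took 2.63%, 2.42% and 2.2% of counts in the UC libraries, against 2.16%, 1.97% and 2.33% in the UE libraries. UE3 lay above UC3, so the zones overlapped (difference 0.26 percentage points, two-sided exact permutation p = 0.2, Benjamini-Hochberg adjusted 0.267 over 4 library measures).

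Some transcripts had counts in every library of one zone and none in the other. With at least 5 counts in each library of the zone that had them, 85 genes were at 0 in all UC libraries and 73 at 0 in all UE libraries, with a median of 39 counts over 3 libraries in both sets. The same rule gave 53 genes at 0 in VC and 132 at 0 in VE. Such genes were irregular elsewhere as well: 78 of the 85 and 69 of the 73 were at 0 in at least 1 variegated library too. Of the 85 and 73 genes, 54 and 34 passed the filter on low counts, which they could do only through the libraries that held them. All 54 and all 34 had an unadjusted edgeR p below 0.05, so they are counted among the 1291 lower and 1800 higher genes. Genes with no counts in one zone also stand among the leading genes ranked by p. These p-values are not read as support for a difference of the zones. RSEM divides reads among similar transcripts, so a gene at 0 may have its reads assigned to a near copy.

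The size of difference that could be bounded depended on level. Over all genes tested, 38.4% of those with a standard error had a 95% interval of the log2 fold change that lay within 1 either side of 0, that is, within a 2-fold change. This share was 91.3% at 100 CPM and over, 90.3% at 10 to 100 CPM, 36.2% at 1 to 10 CPM and 0.15% under 1 CPM. The median standard error was 0.19 in both upper classes, 0.40 at 1 to 10 CPM and 0.89 under 1 CPM on the log2 scale. For most transcripts at 10 CPM and over, a zone difference above 2-fold was thus outside the interval. Under 1 CPM the intervals of nearly all genes were wider than that.

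Genes called in the variegated zones were set beside their values in unvariegated leaves, which come from other libraries but from the same edgeR fit. Of the 227 genes higher in VC than in VE, 13 lay above UE in every UC library and 21 below, and their median log2 fold change was -0.08 in UC against UE and 1.26 in VC against VE. Of the 338 genes lower in VC, 31 lay below UE in every UC library and 20 above, with medians of -0.11 in UC against UE and -1.35 in VC against VE. At an unadjusted edgeR p below 0.05 in UC against UE, 36 of the 338 were lower (10.7%, against 2.18% of all genes tested) and 15 higher (4.44%, against 3.04%). Of the 227, 9 were higher (3.96%) and 7 lower (3.08%). Taken over both directions, 44 of 565 (7.79%) had non-overlapping zones in the same direction, against 6.09% and 4.86% of all genes tested above or below. The 95% interval of UC against UE lay within a 2-fold change for 399 of 561 of these genes with an interval. The VC against VE medians are those of genes picked by that same test. Both contrasts share an estimate of the spread of each gene. Genes called in VC against VE can therefore have small p in UC against UE more often, in either direction. All genes tested are not a like baseline for these shares, and no conclusion is drawn from the comparison.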

How the data were processed

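Poly(A) RNA of 12 libraries was measured. The authors deposited expected counts and FPKM values for 185746 transcript clusters; the tools that the submitters' processing notes name are Bowtie2, RSEM and CASAVA 1.8. Assembler and reference: not given in the sources used here. In the deposited table, 21.3% of expected counts were not whole. The deposited FPKM values divide by length and library total and served for effective lengths (ratio of count to FPKM, median over libraries with at least 10 counts and 0.1 FPKM) and for an alternative. Per the labels' protocols no strand-marking step is described, so whether antisense pairs can be told apart is not known.

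Counts were rounded and filtered with filterByExpr (minimum count 10, minimum total 15), leaving 59225 genes with 98.9% of counts. All 12 libraries entered 1 fit in edgeR 4.0.16 (R 4.3.3): TMM, estimateDisp, robust glmQLFit and glmQLFTest, Benjamini-Hochberg adjusted p below 0.05. Each standard error is the size of the log2 fold change over the root of F, and intervals use the t quantile at the fit's degrees of freedom. The edgeR fit was tested on simulated data. Log2 CPM used a prior count of 2. Exact permutation tests (two-sided) served for the 4 library measures. The named genes are the 2 higher and 2 lower in UC with the smallest p, a mean of at least 1 CPM in unvariegated leaves and no overlap of zones. The members, rules and lists were chosen with earlier results of these data known. No list of genes by function was applied, since identifiers carry no names. Replicate pairs within UC and UE differed by a chi-square per degree of freedom of 12.3 to 27.2, more than sampling noise. Alternatives were RLE factors, library totals, other filters, DESeq2 1.42.0, limma 3.58.1 (limma-trend on log2 FPKM plus 1 or 0.1), a replicate block, 6 libraries alone, removal of the length trend and each library left out. Figures were drawn with matplotlib 3.10.9.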

Additional observations from a re-analysis of the deposited data

Results flagged for a closer look

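The centre-edge difference differed between variegated and unvariegated leaves for 57 genes by the edgeR interaction test at an adjusted p below 0.05. Of these, 21 had a more positive and 36 a more negative VC minus VE difference than UC minus UE difference. This is a split by sign and not by size. Over the 57 genes the median absolute log2 fold change was 2.31 in VC against VE and 0.34 in UC against UE. The sign was opposite in variegated and unvariegated leaves for 44 of the 57. The interaction test itself selects these values. In UC against UE the 95% interval of 30 of the 57 lay within a 2-fold change. For 24 (42.1%) the UC and UE values did not overlap, as for 11% of all genes tested. The interaction test uses these same UC and UE values, so the 42.1% also follows from how the genes were picked and is not a separate result. The 4 named genes were not among the 57. The count was 9 without VE2, 10 without UC2, 11 without UE3, 13 without UC1, 15 without VE1 or VC2, 18 without UE1, 24 without VE3 and 33 without UC3 or VC3, against 44 without VC1 and 64 without UE2.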

How the results depend on the processing

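The count of 1 gene in UC against UE was 26 with no filter, 113 with DESeq2 and 2 with limma-trend on log2 FPKM plus 1 or plus 0.1. It was 0 with the replicate block, with the 6 unvariegated libraries alone (with or without the block) and with the length trend removed (with or without the block), and 0 to 7 with single libraries left out, 7 being without UC3 and 2 without UE3. Without UC1 the 1 gene called was lower. For VC against VE the count of 565 was 2086 with library totals, 956 with no filter, 2254 with DESeq2, 1792 and 1739 with limma-trend on log2 FPKM plus 1 and plus 0.1, and 86 to 557 with a library left out. The interaction count of 57 was 319 with no filter, 826 with DESeq2, 94 with limma-trend on log2 FPKM plus 1, 27 with the length trend removed and the replicate block, and 9 to 64 with a library left out. The cause of these shifts was not tested. Leaving out libraries also changed the number of genes tested, which was 59225 in the main fit. It was 63299 to 65971 with a single library left out and 51321 with the 6 unvariegated libraries alone.

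The replicate numbers were not taken to pair the libraries, since the labels do not say that a replicate number marks a shared plant. Deviations from the zone means correlated across genes at 0.10 for UC1 and UE1, 0.07 for UC2 and UE2 and -0.047 for UC3 and UE3. Among genes at 10 CPM and over these values were 0.41, 0.31 and -0.027. Deviations within a zone sum to 0 over its 3 libraries, so these correlations cannot decide whether the libraries are paired. By these deviations UC1 and UC2 were closest to the UE library of their own number, and UC3 was closest to UE2. By the correlation of log2 CPM itself, UC1 was closest to UE1 (0.948). UC2 and UC3 were closest to UE3 by that measure (0.923 and 0.939). With the replicate block Cluster-20123.55719 had a log2 fold change of 2.67 (edgeR, Benjamini-Hochberg adjusted p = 0.3). Of genes at an unadjusted p below 0.05, 58.2% were higher in UC as reported, 79.8% with library totals (2620 higher, 663 lower), 70.9% with limma-trend on log2 FPKM plus 1 and 49.2% with the length trend removed.

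With library totals the class medians were 0.28 under 1 CPM, 0.14 at 1 to 10, 0.031 at 10 to 100 and -0.031 at 100 CPM and over, and 0.34 under 300 bases, 0.10 at 300 to 1000 and 0.057 at longer lengths. From log2 FPKM plus 0.1 they were 0.12 under 1 CPM, 0.073 at 1 to 10, 0.000257 at 10 to 100 and -0.066 at 100 CPM and over. By length they were then 0.12 under 300 bases, 0.040 at 300 to 1000 and 0.026 at 1000 bases and over. With single libraries left out the class medians ranged from 0.092 to 0.26 under 1 CPM, 0.0071 to 0.047 at 1 to 10, -0.11 to -0.079 at 10 to 100 and -0.20 to -0.11 at 100 CPM and over. By length they ranged from 0.19 to 0.28 under 300 bases, -0.041 to 0.039 at 300 to 1000 and -0.099 to -0.022 at longer lengths. The share of genes bounded within a 2-fold change was 42.1% with the 6 unvariegated libraries alone and 37.7% with the replicate block.

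The difference in detected genes, 1484 more in UC, was -2635 without UE2 and -159 without UC3, with a range up to 5208. Leaving out a library gave -2.72 to -1.38 points for the 100 most abundant genes, 0.65 to 0.99 for genes under 300 bases and 0.15 to 0.37 for counts outside the largest group. Libraries of 13139086 to 20306020 counts gave intervals within a 2-fold change for 0.15% of genes under 1 CPM.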

Other observations

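In 2 assembly groups outside the largest one, 1 member was at 0 in all UC libraries and another at 0 in all UE libraries. In the first, a group of 2 genes, the summed counts were 19, 19 and 30 in UC1, UC2 and UC3 and 13, 26 and 42 in UE1, UE2 and UE3, so the zones overlapped at the level of the group although neither member had counts in both zones. In the other, a group of 3 genes, the sums were 35, 15 and 7 in the UC libraries and 20, 15 and 29 in the UE libraries, which also overlapped. These groups were picked after their values were seen.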
